A study of Mus musculus with 3 samples.

Results

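Expression of 10 immediate-early response genes, namely Fos, Fosb, Jun, Junb, Atf3, Egr1, Nr4a1, Ier2, Dusp1 and Zfp36, was examined in 3 fractions of mouse epididymal fat. The genes were chosen by name, as the probes that carry these symbols on the array, with earlier results of these data known. They are 10 of 37325 genes read and 14 of 56605 probes. Fat of male C57/BL mice, 20 weeks old by the labels, was digested with collagenase and spun at 9 g for 1 s, and the lower phase gave the stromal vascular cells (SVC). The floating layer was then spun at 226 g for 3 min, which left mature adipocytes (MA, the mature white adipocytes of the study) afloat and sedimented the small proliferative adipocytes (SPA). SVC and SPA were grown in DMEM and taken at 90% confluency, whereas no culture is described for MA. No fraction received a drug or carried a transgene by the labels, and the number of animals behind an array is not stated. Total RNA (50 ng) of each fraction was labelled with Cy3 and measured on 1 Agilent 1-colour array, so no difference has a replicate check and no p-value is given. Culture and cell type cannot be told apart between MA and the 2 cultures, and MA also carries another day in its label than they do.

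Immediate-early genes are transcribed within minutes of a stimulus such as a growth factor, a hormone, mechanical stress or tissue damage, without new protein synthesis, because the factors that start them (SRF with its partners, and CREB) already sit in the cell. Many of the products are transcription factors, of which the FOS and JUN families pair into AP-1, and others, such as the phosphatase DUSP1 and the RNA-binding protein ZFP36, end the response. Their mRNAs are short-lived. Enzymatic digestion of solid tissue is itself known to induce these genes, and all 3 fractions here went through it. SVC and SPA were then cultured to 90% confluency, whereas no culture is described for MA. The part of digestion, and of the time since it, in these values was not tested.

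The 250 bases before the RefSeq transcription start (GRCm38.p6) were available for 8 of the 10 genes, one start each. They were searched on both strands for TGACG, the core letters of the cAMP response element that CREB binds, and for the CArG box of SRF. TGACG stood in 6 of these 8 (Fos, Fosb, Junb, Atf3, Nr4a1 and Dusp1) and in 17.8% of 32851 promoters of the same length. The CArG box stood in 1 of 8, Zfp36, and in 1.47% of all. The full palindrome TGACGTCA, which contains TGACG on each strand, stood in Dusp1 and in 1.55% of all. The AP-1 site TGACTCA stood in none of the 8 and in 4.46% of all, and TATAAA stood in Fos and in 12.4% of all. A match describes letters in this window and does not show that a factor binds there. Lack of a match, as for the CArG box in Fos, says nothing about sites further upstream. Egr1 and Ier2 had no sequence to search. Below are the 4 genes with the highest ratios of MA over SPA, Dusp1 for its palindrome, and Atf3, which departed most from the others. They are written 5′ to 3′ on the strand of the gene, with TGACG, the palindrome and the CArG box in capitals. A copy of TGACG on the other strand reads CGTCA here.
Fosb: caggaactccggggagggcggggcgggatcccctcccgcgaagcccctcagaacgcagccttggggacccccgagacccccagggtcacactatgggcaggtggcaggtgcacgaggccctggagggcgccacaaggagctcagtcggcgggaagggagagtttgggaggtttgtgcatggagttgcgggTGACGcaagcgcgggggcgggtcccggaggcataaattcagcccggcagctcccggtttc
Zfp36: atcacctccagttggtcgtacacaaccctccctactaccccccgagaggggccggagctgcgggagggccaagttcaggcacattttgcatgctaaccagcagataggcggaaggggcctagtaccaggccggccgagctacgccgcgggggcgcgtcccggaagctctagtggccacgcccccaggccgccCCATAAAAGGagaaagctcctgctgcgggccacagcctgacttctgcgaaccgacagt
Nr4a1: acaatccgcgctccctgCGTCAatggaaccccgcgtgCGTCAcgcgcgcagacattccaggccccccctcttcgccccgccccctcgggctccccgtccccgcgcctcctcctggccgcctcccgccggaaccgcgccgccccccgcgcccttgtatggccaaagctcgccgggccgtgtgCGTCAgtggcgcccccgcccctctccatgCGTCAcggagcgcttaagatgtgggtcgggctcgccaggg
Fos: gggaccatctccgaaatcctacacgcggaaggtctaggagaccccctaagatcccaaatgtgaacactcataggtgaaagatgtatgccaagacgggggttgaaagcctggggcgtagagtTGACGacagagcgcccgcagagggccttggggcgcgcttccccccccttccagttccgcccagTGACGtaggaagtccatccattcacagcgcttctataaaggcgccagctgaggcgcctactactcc
Dusp1: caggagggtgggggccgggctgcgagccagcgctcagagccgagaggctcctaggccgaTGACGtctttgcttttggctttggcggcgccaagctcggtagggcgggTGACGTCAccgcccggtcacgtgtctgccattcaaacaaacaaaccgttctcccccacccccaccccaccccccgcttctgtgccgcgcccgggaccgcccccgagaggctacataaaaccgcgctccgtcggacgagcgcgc
Atf3: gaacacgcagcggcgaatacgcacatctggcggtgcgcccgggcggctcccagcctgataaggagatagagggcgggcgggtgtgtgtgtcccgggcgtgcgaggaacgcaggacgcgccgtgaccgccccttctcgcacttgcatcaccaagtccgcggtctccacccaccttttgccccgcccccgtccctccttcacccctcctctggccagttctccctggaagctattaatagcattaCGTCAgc
These windows are chr7:19310046-19310295 for Fosb and chr7:28379229-28379478 for Zfp36, both on the minus strand, and chr15:101266596-101266845 for Nr4a1 and chr12:85473640-85473889 for Fos, both on the plus strand. Those of Dusp1 (chr17:26508473-26508722) and Atf3 (chr1:191183334-191183583) are on the minus strand. Nr4a1 carried 4 copies of TGACG, all on the opposite strand. Fos carried 2, one of them 66 to 62 bases before the start, and the single copy of Fosb lay at nearly the same distance, 60 to 56 bases before it. In Atf3, the match lay 7 to 3 bases before the start. Zfp36 had its CArG box 58 to 49 bases before the start.

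All 10 genes were higher in MA than in both SPA and SVC. With a limit of 5-fold, 9 of 10 were called higher in MA than in SPA, against 5.47% of the 24102 genes with a reading in that comparison, and all but Atf3 made up this count. All 10 were called higher in MA than in SVC, against 5.72% of 23597 genes. Against both cultures at once, 9 of 10 passed, where 4.61% of 24338 genes did. None was lower in MA at 5-fold, where 3.97% of genes were lower than in SPA, 3.96% lower than in SVC and 2.65% lower than in both. At 10-fold, 7 of the 10 were higher than in SPA (2.7% of genes), 6 higher than in SVC (2.95%) and 5 higher than in both (2.36%). The median log2 ratio over the 10 genes was 4.59 for MA over SPA and 3.70 for MA over SVC, beside -0.07 and -0.00 over all genes. Each of the 10 was well above background on all 3 arrays at the probe read here, which is the one with the highest mean level of its gene. The levels below are processed signals of that probe, and ratios were taken after each array was scaled to its own 75th percentile. For these probes Feature Extraction, the scanner software, gave an error of a log2 ratio of 0.20 to 0.22, which covers a spot within an array and not animals or cultures.

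**Figure D1:**
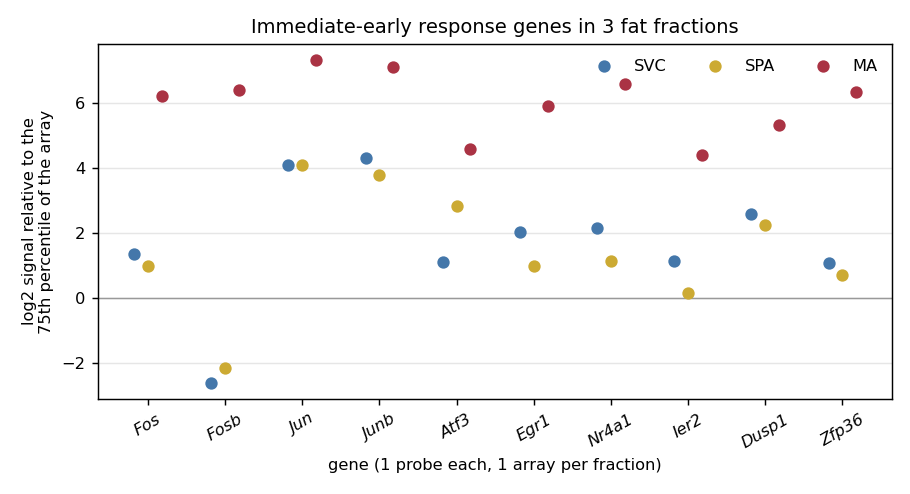
Log2 processed signal after scaling each array to its 75th percentile (y axis) for each immediate-early gene (x axis), read at 1 probe each, with 1 point per fraction and no error bars because each fraction has 1 array. The MA points sit between 4.41 (Ier2) and 7.33 (Jun) and lie above both culture points in every gene, while the SVC and SPA points differ by more than 2-fold in Atf3, Egr1 and Nr4a1 and by less in the other 7 genes.

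Markers of several cell types differed between MA and the cultures on the same arrays. Beside the counts below, 5.47% of all genes were called higher and 3.97% lower in MA than in SPA. Against SVC the shares were 5.72% higher and 3.96% lower, so 0 or 1 call in such short lists is about what they give. Adipocyte markers checked the label of MA, with 8 of 9 called higher than in SPA, 9 of 9 higher than in SVC and a summed scaled signal of 4.70 in SVC, 28.8 in SPA and 1725 in MA. Adipoq and Plin1, which define adipocytes, were not well above background in SVC. Erythrocyte markers were called higher in MA than in either culture for 6 of 8 genes on the arrays, with sums of 0.403, 0.437 and 736 in the same order. Endothelial markers were higher than in SPA for 7 of 8 and than in SVC for 8 of 8, with sums of 3.72, 6.79 and 47.0. Lymphocyte markers were higher than in SPA for 4 of 8, with sums of 3.73, 3.89 and 5.98, and Cd79a was not well above background anywhere. Neutrophil markers were higher than in SPA for 2 of 8, with sums of 60.5, 68.2 and 79.8, and Cxcr2 and Ngp were not well above background anywhere. Macrophage markers were lower in sum in MA (217) than in SVC (561) and SPA (606), although 4 of 10 were called higher than in SPA. These sums were mostly Lyz2, whereas the 4 were C1qc (12.5-fold), C1qb (12.3-fold), C1qa (11.3-fold) and Cx3cr1 (at least 10.1-fold). In the macrophage list 1 gene was called lower than in SPA, and none was called in either direction against SVC. Progenitor and fibroblast markers were higher than in SPA for 3 of 10 and lower for 0, and higher than in SVC for 1 and lower for 1 (sums of 300.1, 166 and 458). Mesothelial markers were higher than in SPA for 4 of 6, but against SVC 0 were higher and 1 was lower (sums of 35.8, 9.52 and 22.3). Smooth muscle markers went both ways, with 2 of 7 higher and 2 lower than in SPA, 2 higher and 3 lower than in SVC, and sums of 727, 330 and 59.3. The part of these cells in the values of the immediate-early genes was not tested. In a bulk fraction, fewer cells of a type and less RNA per cell cannot be told apart. The summed scaled signal of the 10 genes themselves was 61.0 in SVC, 51.9 in SPA and 787 in MA.

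Of the FOS subunits, Fosb had the highest ratios of the 10 genes in both comparisons with MA. It had a processed signal of 70.8 in SVC, 99.9 in SPA and 31448 in MA (probe at chr7:19888168-19888227, mm9, minus strand). Both cultures were dim and MA lay far above them, 378-fold higher than SPA (log2 8.56) and 523-fold higher than SVC (log2 9.03). Of 20777 genes measured on both arrays, Fosb had the 6th highest ratio of MA over SPA, and it was 13th of 20174 for MA over SVC. Fos, the partner that gives AP-1 its stable DNA binding, read 1114 in SVC, 880 in SPA and 27614 in MA (chr12:86818118-86818177, mm9, plus strand). Here the cultures were well measured and close to each other, and MA was 37.7-fold higher than SPA (log2 5.24, rank 134) and 29.2-fold higher than SVC (log2 4.87, rank 156).

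The JUN subunits had smaller ratios. Jun, which can form AP-1 with FOS or with itself, read 7459 in SVC, 7496 in SPA and 58861 in MA (chr4:94716928-94716987, mm9, minus strand). The 2 cultures gave nearly the same value, and MA was 9.43-fold higher than SPA and 9.29-fold higher than SVC. Junb, a JUN family member that often restrains JUN, read 8552 in SVC, 6046 in SPA and 50672 in MA (chr8:87500843-87500902, mm9, minus strand). MA was 10.1-fold higher than SPA and 6.97-fold higher than SVC, and SVC lay above SPA. By rank, Jun and Junb stood at 491 and 462 for MA over SPA, behind Fos and Fosb.

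Atf3 was the only gene of the 10 that fell under the limit in a comparison with MA. It encodes a stress-induced factor of the ATF/CREB family that often acts as a repressor. Its signal was 925 in SVC, 3142 in SPA and 8884 in MA (chr1:192994547-192994606, mm9, minus strand), so that SPA lay almost midway between the others on a log scale. MA was 3.39-fold higher than SPA (log2 1.76, rank 1492) and 11.3-fold higher than SVC (log2 3.50, rank 410).

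Of the remaining transcriptional regulators, Egr1, a zinc finger factor and a classical target of SRF, read 1755 in SVC, 878 in SPA and 22301 in MA. MA was highest and SPA lowest, with 30.5-fold for MA over SPA (log2 4.93) and 15.0-fold for MA over SVC (log2 3.90). Nr4a1, an orphan nuclear receptor, read 1936 in SVC, 967 in SPA and 35733 in MA (chr15:101105071-101105130, mm9, plus strand). The order was the same as for Egr1, and MA was 44.3-fold higher than SPA (log2 5.47, rank 108) and 21.7-fold higher than SVC (log2 4.44, rank 218). Ier2, a small nuclear protein named for its early induction, read 951 in SVC, 495 in SPA and 7793 in MA (chr8:87185211-87185245, mm9, minus strand). It followed the same order with smaller ratios, 18.9-fold over SPA and 9.64-fold over SVC.

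The genes that end the response were higher in MA as well. Zfp36 encodes tristetraprolin, which binds AU-rich elements and speeds the decay of mRNAs, cytokine mRNAs among them. It read 906 in SVC, 715 in SPA and 29960 in MA (chr7:29161963-29162022, mm9, minus strand). Only Fosb among the 10 had a higher ratio, since MA was 50.3-fold higher than SPA (log2 5.65, rank 89) and 38.9-fold higher than SVC (log2 5.28, rank 116). Dusp1, which dephosphorylates p38, JNK and ERK, read 2598 in SVC, 2087 in SPA and 14775 in MA (chr17:26642624-26642683, mm9, minus strand). Its ratios were the smallest for MA over SVC, 6.69-fold (log2 2.74, rank 683), and the smallest after Atf3 for MA over SPA, 8.50-fold (log2 3.09, rank 541).

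**Figure D2:**
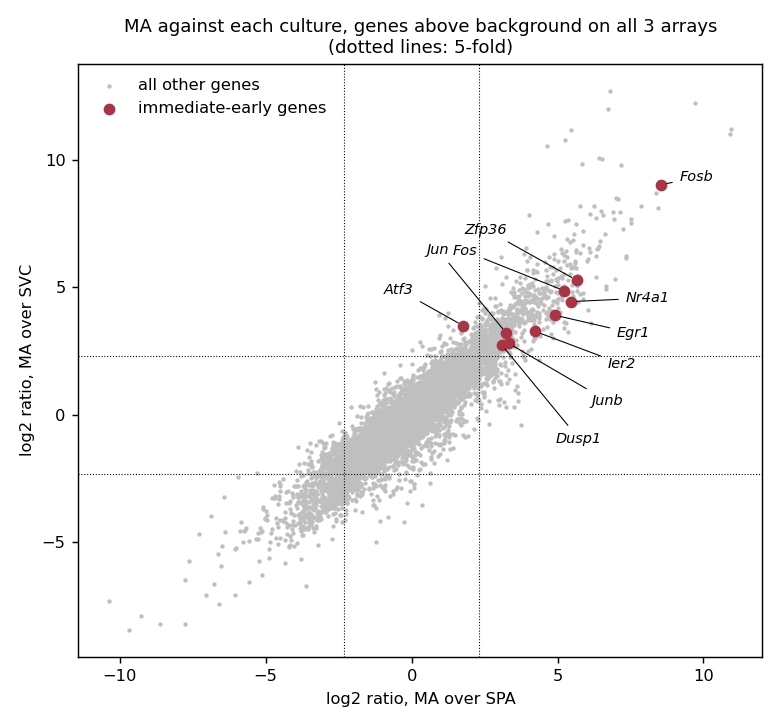
Log2 ratio of MA over SPA (x axis) against that of MA over SVC (y axis) for genes well above background on all 3 arrays, with the immediate-early genes in red and 5-fold marked by dotted lines. Both axes use the same MA array, so the spread along the diagonal is partly shared by construction. Fosb lies far out at 8.56 and 9.03, 8 further genes lie past 5-fold on both axes, and Atf3 lies left of the limit for SPA.

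Comparing SPA with SVC sets 2 cultures taken at the same confluency against each other. None of the 10 genes passed 5-fold in either direction, where 0.32% of 22809 genes were higher in SPA and 0.351% were lower. Over the 10 genes SPA had a median of -0.37 against SVC on the log2 scale, beside 0.07 over all genes. Of the 10, 8 were lower and 2 higher in SPA, where 13097 of all 22692 genes with a ratio were higher. Past 2-fold there were 3 genes, with Atf3 higher in SPA (3.33-fold, rank 126 of 20823), and Egr1 and Nr4a1 lower (each 2.04-fold), beside 3.89% of genes higher and 3.24% lower at that limit. Ier2 lay just inside it, 1.96-fold lower in SPA. Junb (log2 -0.53), Fos and Zfp36 (each -0.37) and Dusp1 (-0.34) were lower in SPA by less, and Fosb was higher by 0.47. Jun, at -0.02, was the only gene whose difference lay within the error that Feature Extraction gives for a ratio.

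**Figure D3:**
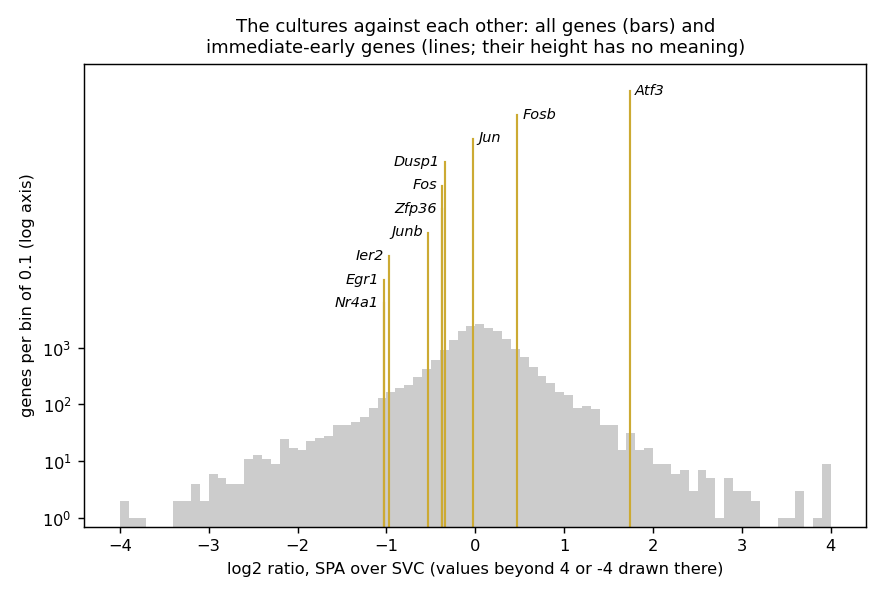
Number of genes per bin of 0.1 (y axis, log scale) by log2 ratio of SPA over SVC (x axis) for genes well above background on both arrays, with a vertical line at the ratio of each immediate-early gene. Lines for 5 genes lie between 0 and -0.53, Egr1, Nr4a1 and Ier2 lie near -1, Fosb lies at 0.47 and Atf3 at 1.74.

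Of the 10 genes, 7 had 1 probe and 3 had several, which allowed a second reading of the same RNA. Of the 14 probes, 12 were well above background on all 3 arrays. The second probe of Fosb read 3.47 in SVC and 7.52 in SPA, neither of them well above background, and 1830 in MA. Against the lowest signal well above background on each culture array, this makes MA at least 176-fold higher than SPA and at least 155-fold higher than SVC, the same direction as the first probe. For Junb, the second probe read 81.2 in SVC, 45.0 in SPA and 691 in MA, which puts MA 18.4-fold over SPA (log2 4.20) and at log2 3.32 over SVC. Its ratios were larger than those of the brighter probe, in the same order of the arrays. The third probe with the symbol Junb, designed on a cDNA clone and not on the RefSeq transcript, was not well above background on any array. The second probe of Ier2, also designed on a clone, read 38.9, 30.1 and 157 in SVC, SPA and MA, so that MA was 6.25-fold over SPA but 4.74-fold over SVC, under the limit.

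**Figure D4:**
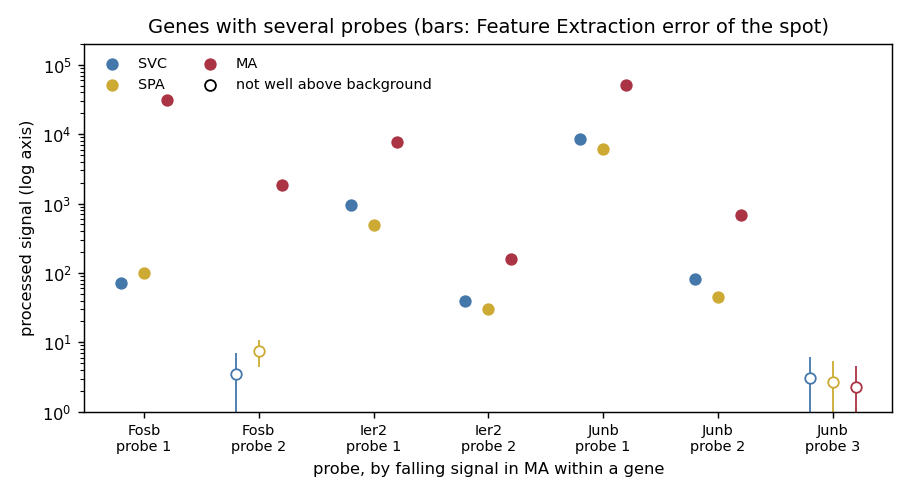
Processed signal (y axis, log scale) of each probe of Fosb, Ier2 and Junb in the 3 fractions, with bars for the error that Feature Extraction gives for the spot, which are smaller than the point where not seen. Open points are not well above background, and bars that reach below 1 end at the axis. MA is highest at 6 of 7 probes, and the third probe of Junb lies at background on every array.

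The 10 genes were set beside 115 other genes of the early response and its neighbourhood, in 8 lists by role. These lists were written with earlier results of these data known, so their counts are descriptive only. Of the 115, 28 were called higher and 4 lower in MA than in SPA, 26 higher and 3 lower in MA than in SVC, and 23 higher and 2 lower than in both. Over all genes, 5.47% were higher and 3.97% lower than in SPA, 5.72% higher and 3.96% lower than in SVC, and 4.61% higher and 2.65% lower than in both. None of the 115 was called between SPA and SVC, where 0.32% of all genes were higher and 0.351% lower. For lists of this size, 0 or 1 call in a direction is about what these shares give. The median log2 ratio of MA over SPA was 0.95 over the 115 genes.

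Among RNA decay and NF-kB feedback genes, 5 of 9 were called higher than in SPA and 7 of 9 than in SVC. The list's median for MA over SPA was 2.98 on the log2 scale. Btg2, an antiproliferative factor that promotes deadenylation, was 58.3-fold higher in MA than in SPA, and Socs3, the feedback inhibitor of cytokine receptors, 26.7-fold. Other genes of that count were Nfkbiz (19.3-fold), Zfp36l1 (10.4-fold) and Nfkbia (7.89-fold), whereas Zfp36l2, a paralog of Zfp36, had a log2 ratio of -0.02. Among other early transcription factors, 9 of 15 were called higher than in SPA and 7 of 15 than in SVC, with a median of 2.47. Egr3 was 27.6-fold and Nr4a2 22.4-fold higher in MA than in SPA. Nr4a3, the third NR4A receptor, had a log2 ratio of 0.31 and Hes1, a Notch target, of 0.02. Hence the 3 NR4A genes gave 44.3-fold for Nr4a1, 22.4-fold for Nr4a2 and 1.24-fold for Nr4a3.

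Early cytokines ranged widely, with a median log2 ratio of MA over SPA of 2.05. In both comparisons 4 of 9 were called higher, and these were Il6 (37.4-fold over SPA), Cxcl2 (47.9-fold), Cxcl1 (32.7-fold) and Il1b, which was at least 259-fold higher because neither culture was well above background. Ccl2 and Ccl3, chemokines for monocytes, had log2 ratios over SPA of 0.43 and -0.32, and Tnf (2.05), Lif (1.25) and Ccl4 (1.06) lay between these groups and under the limit. MAPK feedback inhibitors moved both ways, with 4 of 14 called higher than in SPA (Dusp2 14.9-fold, Spry4 7.90-fold, Errfi1 7.67-fold and Spry1 6.34-fold) and 1 lower. The lower one was Dusp4, a nuclear phosphatase of the same family as Dusp1, 5.90-fold lower in MA than in SPA. Over SVC, 2 of the 14 were called higher, Dusp2 and Spry4.

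AP-1 and ATF partners mostly stayed under the limit, with 1 of 11 called in each comparison. That gene was Jund, the JUN member usually present without a stimulus, at 5.33-fold over SPA and 5.09-fold over SVC. Fosl1, which encodes FRA1, had a log2 ratio of MA over SPA of -1.69, opposite in sign to Fos and Fosb. Of 22 other early response genes, 4 were called higher than in SPA, namely Trib1 (27.8-fold), Sik1 (11.2-fold), Per1 (7.34-fold) and Gadd45g (5.05-fold). Lower in MA than in SPA were Snai1 (5.45-fold) and Ereg, an EGF receptor ligand that was not well above background in MA and was at least 54.3-fold lower. Ccn2, a matricellular target of SRF and YAP, was 4.77-fold lower than in SPA and 13.5-fold lower than in SVC.

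Heat shock and metal stress genes as a list had a median log2 ratio of MA over SPA of 0.08, with 1 of 16 called higher and 1 lower than in SPA. Hspa1a, an inducible HSP70, was 17.2-fold higher, Hspa1b 4.53-fold higher, and the heme oxygenase Hmox1 8.94-fold lower in MA than in SPA. Over SVC, 2 of 16 were called higher, Hspa1a (13.2-fold) and Dnajb4 (5.10-fold). Hspa1a and Hspa1b are near-identical copies, so their probes may share signal. None of the 19 upstream regulators was called in any comparison, and their median was -0.27, with Srf 2.81-fold higher and the kinase gene Rps6ka1 4.39-fold lower in MA than in SPA.

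**Figure D5:**
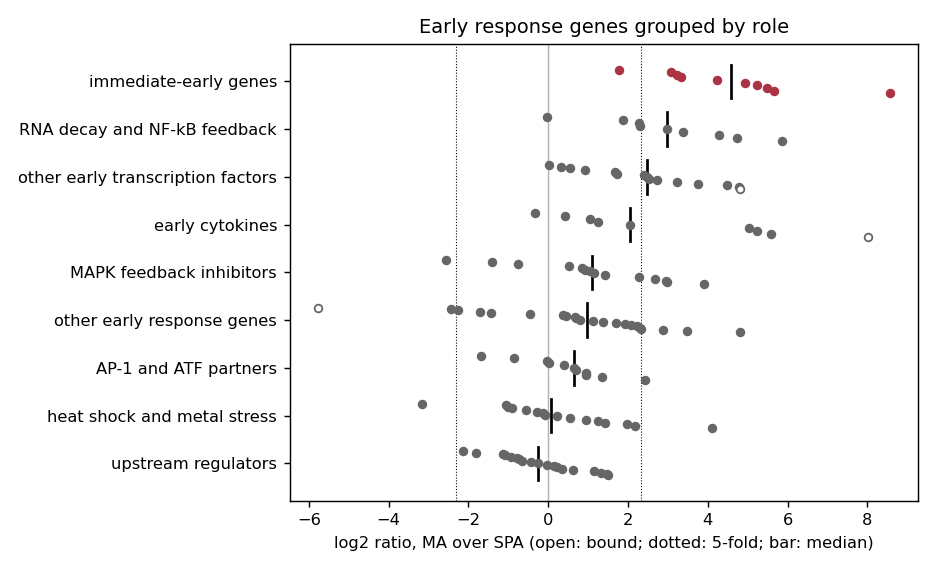
Log2 ratio of MA over SPA (x axis) for every gene of each list (rows, by falling median), with the immediate-early genes in red on top, the median as a bar, 5-fold as dotted lines, and open points for genes not well above background on one of the arrays, drawn at their bound. The median runs from 4.59 for the immediate-early genes to -0.27 for the upstream regulators.

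The genes with the most similar pattern were sought among 19971 genes well above background on all 3 arrays, by their distance from the median pair of log2 ratios of the 10 genes (4.59 over SPA and 3.70 over SVC). The 5 nearest were Arxes2 (distance 0.06), Socs3 (0.16), Fam43a (0.19), Vnn1 (0.22) and Tnfaip6 (0.23). This likeness rests on 3 arrays. Arxes2 and Socs3 had nearly the same ratios, 24.6-fold and 26.7-fold over SPA and 13.5-fold and 13.4-fold over SVC.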

How the data were processed

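Gene expression of SVC, SPA and MA was measured with 1 Agilent array each, of 1 array design and with 1 scan time by the file headers. For every spot the authors deposited a fluorescence intensity from Agilent Feature Extraction 10.7.3.1 (version per the submitters' processing notes): the processed signal, background-subtracted and detrended, with its error and a detection flag. The authors also deposited a ratio of each processed signal to 1 constant per array, which held to within a relative 1.37e-06. Of 59305 spots per array, the share well above background was 58.57% for SVC, 61.36% for SPA and 61.32% for MA, and 0 spots were saturated. Probes spotted 10 times had a median log2 standard deviation of 0.038 in SVC, 0.040 in SPA and 0.046 in MA. Precision is limited by having 1 array per group.

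Arrays were scaled to the 75th percentile of their non-control spots, spots of a probe were averaged, and each gene was read at its brightest probe by mean over the arrays. Calling a gene required its brighter array to be well above background and a fold of at least 5, a limit taken from the study. For a gene not well above background on the dimmer array, the fold is a lower bound against the lowest detected signal there. Shares of called genes are over genes detected on at least 1 of the arrays compared. Gene symbols are those of the array, updated through RefSeq accessions (32994 of 56605 probes matched, 1535 were renamed, 0 of them among the 10 genes). Probe positions are in mm9 and promoters in GRCm38.p6.

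The 10 genes, the 8 companion lists and the 9 marker lists were chosen with earlier results of these data known. Genes named are the 10, the 2 highest and 2 lowest of each companion list by MA over SPA among genes well above background on both arrays (genes with only a bound, such as Egr4, do not enter, and some are left out for brevity), list members behind a count of 5 or fewer, and the 5 nearest in pattern. The calling was tested on simulated data for MA over SPA with 37074 genes: 100 of 100 genes raised 8-fold, 73 of 100 lowered 8-fold and 0 unchanged genes were called. The simulated MA was a copy of the SPA array with small noise and no animal, culture or array variation. The 0 is therefore fixed by this setting and is not a rate of false calls. Alternatives were other scalings, normexp background correction with an offset of 50 (R 4.3.3, limma 3.58.1), quantile normalization, the deposited ratios, other filters, probe rules and fold limits. Python 3.11.15 with numpy 2.4.6, pandas 2.3.3 and matplotlib 3.10.9 was used.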

Additional observations from a re-analysis of the deposited data

How the results depend on the processing

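The counts of genes called at 5-fold (9 over SPA, 10 over SVC, 9 over both cultures and 0 between SPA and SVC) were the same under all 10 alternatives of scaling, background correction, value source, filter, probe rule and spot flags. Of these, 3 (both filters on dim probes and the spot flags) could not change a value of the 10 genes, whose probes read here are all well above background and unflagged. Under the other 7, 70 of 70 log2 ratios of the 10 genes over SPA, and 70 of 70 over SVC, were above 0. Most of these signs could not change. Rescaling and the deposited ratios moved all genes of an array by 1 constant, and the probe rules reached only the 3 genes with several probes. Taking the probe with the largest ratio could only keep or raise a count of calls. No rule read Ier2 at its second probe alone, which was 4.74-fold over SVC, under the limit. All values come from the same 3 arrays. Atf3 ranged from 1.74 to 1.96 over SPA, and Ier2 from 2.76 to 3.33 over SVC. Counts moved with the fold limit. At 10-fold, 7 genes were called over SPA (2.7% of genes), 6 over SVC (2.95%) and 5 over both cultures (2.36%), and at 2-fold 3 genes were called between SPA and SVC. Median scaling put the median of all genes at -0.10 over SPA and -0.16 over SVC, and no filter on dim probes put it at -0.19 over SVC, shifts that are small beside the ratios of the 10 genes. No paired analysis was possible because each group has 1 array and no test was run, and for the same reason no array could be left out. Animal, culture and array variation cannot be estimated from these data, and dim probes such as the second of Fosb give only bounds.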
